A study of Mus musculus with 8 samples.

Results

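The solute carrier (Slc) genes were taken as every gene symbol made of Slc, a family number, a letter and a member number. Of 170 such symbols in either deposited table, 129 were listed both for ribosome-bound and for total mRNA, among 8537 genes listed in both. They comprised 22 mitochondrial-carrier genes (Slc25a), 104 genes of other transporter families and 3 genes that carry the symbol pattern without being transporters (Slc4a1ap, Slc7a6os and Slc9a3r1). Another 8 symbols were listed for ribosome-bound mRNA alone and 33 for total mRNA alone, and neither set was analysed further.

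The data are RNA-Seq of mouse MII oocytes (eggs arrested at the second meiotic metaphase) in 4 pools of 200 oocytes, 2 from old females (Old 1 and Old 2, aged 12 to 15 months, retired breeders) and 2 from young females (Young 1 and Young 2, aged 1 month). All females were RiboTagF/F;Zp3-Cre on C57BL/6, in which Cre from the oocyte-specific Zp3 promoter turns on an HA-tagged ribosomal protein, and ovulation was induced in all with PMSG (5 IU) followed after 48 h by hCG (10 IU), with collection 13 h later. Each pool gave an input library (total mRNA, from 10% of the lysate) and an HA library (ribosome-bound mRNA, by HA immunoprecipitation), 8 libraries in all. The comparisons asked which transporter mRNAs differ with age in amount and in ribosome loading. The old females had bred before collection, so age and breeding history cannot be told apart.

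Solute carriers move amino acids, sugars, ions, metals, nucleotides, vitamins and lipids across membranes, usually by exchange or by coupling to an ion gradient. Most families act at the plasma membrane, although several, such as the Slc35 nucleotide-sugar carriers of the Golgi, act inside the cell. Slc25a carriers form the main route for phosphate, ADP, ATP, amino acids and Krebs cycle intermediates across the inner mitochondrial membrane. The oocyte is known for its dependence on imported pyruvate, on amino acids, on zinc uptake during maturation and on acid-base and volume regulation.

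Values are CPM (reads of a gene scaled to library size and by the authors' TMM factors, which were derived for HA and for input on their own). Between 37817382 and 59688578 reads lay on genes in the HA libraries, and between 38276453 and 60052814 in the input libraries. A floor of 3 reads was 0.0388 to 0.111 CPM for HA and 0.0435 to 0.0788 CPM for input, which covers counting error only because the reads carry no molecular identifiers. Of 10 oocyte markers, 9 were listed in both tables, with a summed level of 8723 to 9698 CPM in input and 10940 to 17340 CPM in HA. Cumulus and granulosa markers (7 of 11 listed in input, 3 of 11 in HA) summed to 32.2 and 108 CPM in old and 80.2 and 186 CPM in young input, and to 83.8 and 81.7 CPM in old and 156 and 182 CPM in young HA, so that in HA both old pools lay below both young pools. Foxl2, Amhr2, Cyp11a1 and Ptx3 were in neither table, nor were the 3 oviduct and 6 blood markers, and the part of such cells in the transporter values was not tested. Old HA libraries also agreed least with each other: 48 of 129 members were more than 4-fold apart between Old 1 and Old 2, against 19 between Young 1 and Young 2, 27 between the old inputs and 14 between the young inputs.

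A gene entered a table when it had at least 1 CPM, before TMM, in at least 2 libraries, and this shaped the list. Of the 129 members, 26 were under that level in both old HA libraries and passed through the young libraries alone, against 0 that passed through the old HA libraries alone. Over all 8898 genes of the HA table the shares were 12.2% and 0.416%. These members had to be lower in old HA, so counts and medians over the list describe it and are no evidence about the family. In input, 2 members passed through the young libraries alone and 0 through the old ones alone (4.31% and 0.788% of all genes).

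The cytoplasmic polyadenylation element (CPE) is a short U-rich stretch of the 3′-UTR through which CPEB1 steers translation during meiotic maturation, the process the study examined in aged oocytes. The motifs TTTTAT and TTTTAAT were searched on the sense strand of each gene's longest annotated 3′-UTR (GENCODE M21, GRCm38), and at least 1 of them was present in 85 of 129 members (65.9%) and in 70.6% of the 7940 genes with a 3′-UTR. A match is a description of letters and not a tested site. Windows are shown for members that the results below turn on, as sense-strand DNA from 5′ to 3′ around the motif nearest the 3′ end, with the motif in capitals.
Slc39a10: gtggtgtgtcaTTTTATatatgttccta
Slc7a11: gagtttgtaagTTTTATctaaatattta
Slc16a10: aaccaaaacctTTTTAATgaagagtgctt
Slc44a5: gttttgaataaTTTTATgaggattgcta
Slc20a2: gctgctaatatTTTTATattgacataca
Slc25a3: tgcaaaggaacTTTTATatatttgacag
Slc25a44: taattaaaagtTTTTATtgagcccct
Slc25a17: atttcgaattgTTTTATattacaaaaaa
The motif ended 53 bases from the 3′ end in Slc39a10, 97 in Slc16a10, 90 in Slc20a2, 106 in Slc25a3, 9 in Slc25a44 and 94 in Slc25a17, but 978 bases from it in Slc7a11 and 405 in Slc44a5. Slc7a11 held 17 motifs in a 3′-UTR of 7364 bases, the most of any member. Of other members described below, Slc37a3 held 1 motif, and Slc9a8, Slc6a4 and Slc26a5 held none. Members with a motif had a median log2 HA/input of -0.63 and those without one -1.0, against -0.43 and -0.78 over all genes, and their 3′-UTRs were longer (median 2225 against 990.5 bases, and 2009 against 680 over all genes), so that motif and length cannot be told apart here.

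Per kilobase of exon, the most abundant members of total mRNA were the zinc importers Slc39a6 (mean 78.4 CPM per kb over the 4 inputs) and Slc39a10 (76.7), and the copper transporter Slc31a2 and the mitochondrial carrier Slc25a48 (55.1) were also among the most abundant. Slc39a6 and Slc39a10 form a zinc-importing pair. The first pair was not separated beyond the spread of the pools, since the input of Slc39a6 ran from 248 to 427 CPM and that of Slc39a10 from 365 to 523 CPM. Slc39a6 overlaps Elp2, and 17 members in all overlap another gene of the tables, so that their levels are uncertain under unstranded counting. Slc39a10 lies at chr1:46807544-46892852 on the minus strand (GENCODE M21, GRCm38) and overlaps no other gene of the tables. The 129 members took 0.685% and 0.662% of the reads on genes in old input, 0.743% and 0.723% in young input, 0.729% and 0.633% in old HA and 0.816% and 0.705% in young HA. The Slc25a carriers took 0.0892% and 0.0614% of old input, 0.0794% and 0.0635% of young input, 0.0849% and 0.0472% of old HA and 0.0861% and 0.0690% of young HA.

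**Figure D1:**
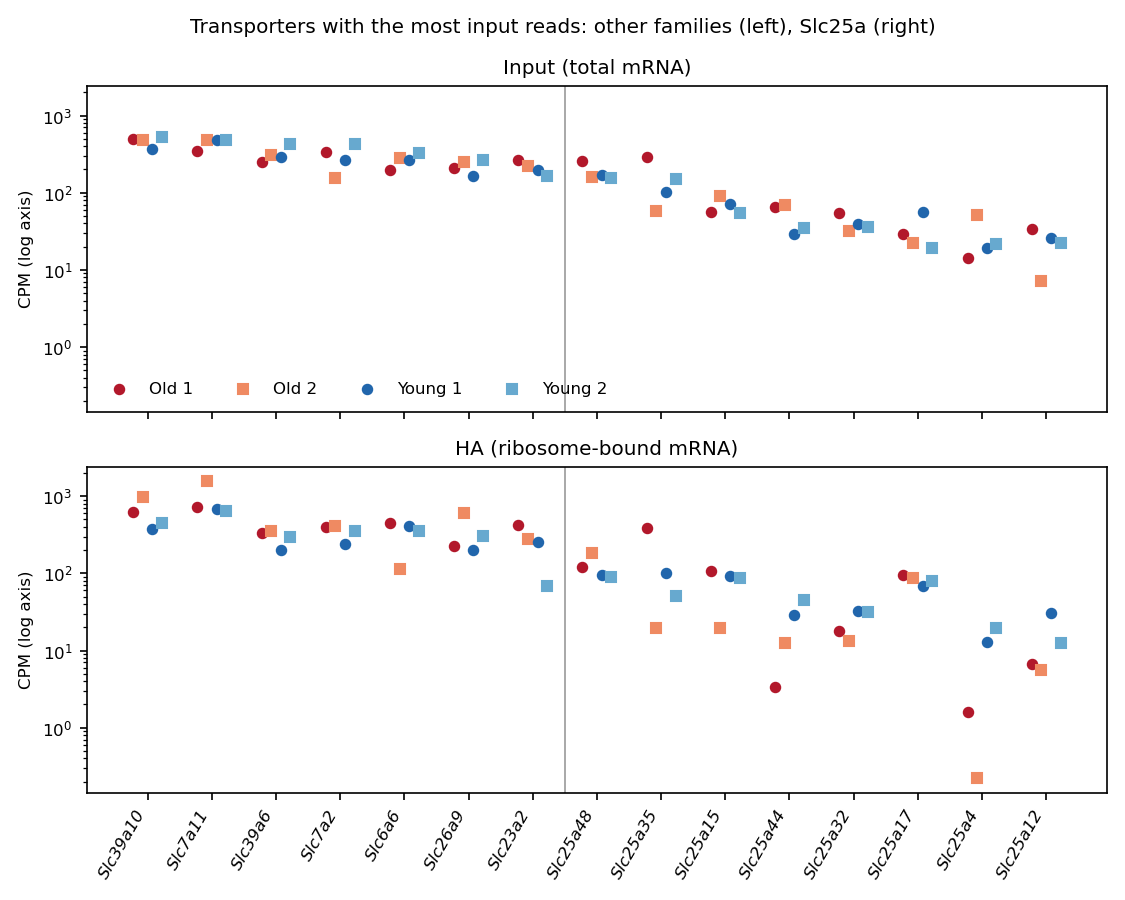
Input (top) and HA (bottom) CPM on log axes for 7 of the 8 members outside Slc25a (left of the line) and the 8 Slc25a members (right) with the most input reads. Each point is 1 library, red and orange for Old 1 and Old 2, dark and light blue for Young 1 and Young 2; in input Old 1 and Old 2 lie apart for Slc25a35 (293 and 58.7 CPM), and in HA the old pools of Slc25a44 (3.33 and 12.6 CPM) and Slc25a4 (1.62 and 0.222 CPM) lie below the young ones.

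In total mRNA, transporters lay on both sides, with 58 members higher and 71 lower in old than in young oocytes by the fitted difference, whatever its p. No member passed an adjusted p of 0.05 in limma with Benjamini-Hochberg adjustment (smallest 0.778), where 1 gene of 10530 (0.0095%) did. On the recovered reads 0 members passed it in DESeq2 or in either edgeR test (likelihood ratio and quasi-likelihood). The share of all genes passing in those tests is not given here. At an unadjusted p under 0.05, 3 members were higher in old (2.33%, against 2.71% of all genes) and 4 lower (3.10%, against 3.48%), and these 7 became 14 without Old 1 (10.9%, against 11.1% of all genes), 12 without Old 2 (9.3%, against 9.34%), 2 without Young 1 (1.55%, against 2.88%) and 3 without Young 2 (2.33%, against 4.01%). Both old pools lay above both young pools for 19 members (14.7%, against 16.4% of all genes) and below them for 19 (18.9% of all genes). The median old minus young difference was -0.09 on the log2(CPM + 1) scale, against -0.03 over all genes, and -0.27 for Slc25a. On this scale the difference of low genes is understated.

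Slc16a10, an Slc16 member that carries aromatic amino acids, had the smallest p in input. Its input CPM was 224 in Old 1, 341 in Old 2, 136 in Young 1 and 146 in Young 2. Both old pools were above both young pools (log2 difference 0.97, SE 0.32, adjusted p = 0.778 in limma), and its HA level was 248, 196, 163 and 158 CPM in the same order. Input of Slc25a16, a mitochondrial carrier, was 16.5 and 26.1 CPM in old against 1.86 and 3.44 CPM in young pools (2.61, SE 0.98). Slc29a3, a nucleoside transporter of lysosomes, was at 57.6 and 74.5 CPM in old and 9.45 and 38.8 CPM in young inputs (1.70, SE 0.71).

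Among those lower in old input, Slc38a7, a glutamine transporter, was at 3.99 and 0.502 CPM in old and at 9.83 and 44.9 CPM in young pools (-3.03, SE 1.18). Slc2a10, of the glucose transporter family, was at 1.80 and 7.24 CPM in old and 18.3 and 42.5 CPM in young pools (-2.59, SE 1.01). Slc9a8, a sodium-proton exchanger of the Golgi, had 0 reads in both old inputs against 139 and 99 in the young ones, at least 40.1-fold lower in old when 3 reads are taken as the floor of each old library. For all 3 the groups did not overlap, and the young pools themselves differed by up to several-fold. Slc9a8 was the single member with at most 3 reads in both old inputs, where 1.15% of all genes had this. It passed the input filter through the young libraries alone, so a lower old level was fixed by the filter.

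In ribosome-bound mRNA, more members were lower than higher in old oocytes, mostly among those of low level. No member passed an adjusted p of 0.05 in limma (smallest 0.297), and neither did any of the 8898 genes (0.0%). edgeR's quasi-likelihood test also called 0 members. Its likelihood ratio test called 7 members (1 higher in old; 5.43%, against 3.32% of all genes) and DESeq2 called 11 (2 higher in old; 8.66%, against 5.82% of all genes). Of those called lower, 6 of 6 in the likelihood ratio test and 8 of 9 in DESeq2 had passed the filter through the young libraries alone. Their direction was fixed by the filter. Without Old 1, limma called 6 members (4.65%, against 4.42% of all genes), and without Young 2 it called 11 (8.53%, against 7.13%). At an unadjusted p under 0.05, 1 member was higher (0.775%, against 4.28% of all genes) and 24 were lower (18.6%, against 10.5%). Of these 24, 22 were among the 26 that had passed the filter through the young libraries alone, as were 854 of the 930 genes lower in old over the whole table. Without Old 1 the counts became 10 and 26 (27.9% in either direction, against 26.1% of all genes), without Old 2 they became 14 and 20 (26.4%, against 19.7%), and without Young 2 they were 0 and 24 (18.6%, against 12.2%). Both old pools lay above both young pools for 18 members (14.0%, against 17.2% of all genes) and below them for 43 (33.3%, against 24.7%).

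The median difference was -0.68 for all members and -0.14 for all genes of the table. It was -0.97 for Slc25a, -0.81 for amino acid carriers, -1.02 for sugar and monocarboxylate carriers, -0.77 for ion and acid-base carriers, 0.01 for metal carriers, -0.73 for nucleoside and nucleotide-sugar carriers and 0.03 for organic, vitamin and lipid carriers. Classes were set by whole gene family and not by each gene's substrate. The serotonin transporter Slc6a4 thus counted with amino acid carriers, and Slc16a10 with sugar and monocarboxylate carriers. The sign followed the level. The 77 members with a mean HA of at least 10 CPM had a median of 0.23 (all such genes 0.18), and the 52 under 10 CPM had -1.71 (all such genes -0.98). Rescaling the libraries to the same sum moved the median of all genes to -0.68 and that of the members to -1.11. Quantile normalization moved them to -0.05 and -0.20. Under quantiles 1 member was higher and 4 were lower at p under 0.05 without adjustment, and the share of all genes there is not given here. In a bulk pool, fewer mRNA copies in every oocyte and a loss in some oocytes cannot be told apart.

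**Figure D2:**
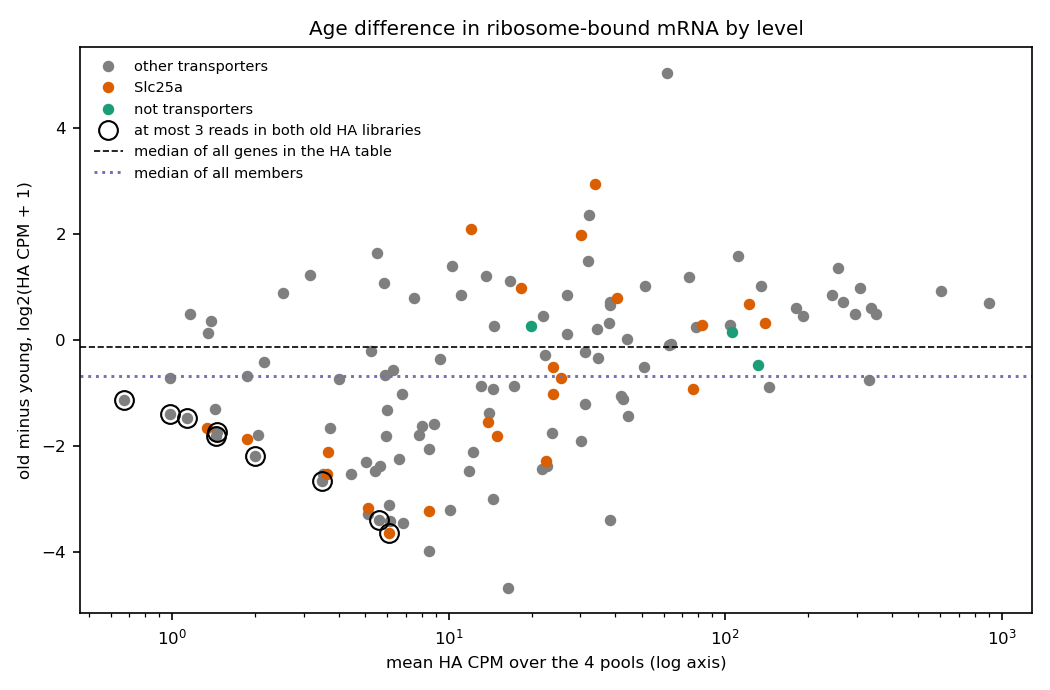
Old minus young difference in log2(HA CPM + 1) against the mean HA CPM over the 4 pools (log axis) for the 129 members, orange for Slc25a, grey for other transporters and green for the 3 non-transporters. Black rings mark the 9 members with at most 3 reads in both old HA libraries, and lines mark the medians of all genes (-0.14) and of the members (-0.68); below 10 CPM most points lie under 0, above it they lie on both sides.

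Of the 22 Slc25a members, 6 were lower in old HA at an unadjusted p under 0.05 (27.3%, against 10.5% of all genes), of which 5 had passed through the young libraries alone. Both old HA pools lay below both young ones for 12 Slc25a members (24.7% of all genes) and above them for 6 (17.2% of all genes). Slc25a3, the carrier that brings phosphate into mitochondria for ATP synthesis, had 3 and 0 reads in old HA and 736 and 840 reads in young HA. Its input was 5.53 and 9.73 CPM in old and 8.55 and 14.5 CPM in young pools, ranges that overlap. The log2 difference was -3.64 in HA (SE 1.01, adjusted p = 0.297 in limma).

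The ADP/ATP exchangers Slc25a4 and Slc25a5 lay on opposite sides. Slc25a4 was at 1.62 and 0.222 CPM in old HA and at 12.8 and 19.3 CPM in young HA (-3.23, SE 1.33, adjusted p = 0.337). Slc25a5 was at 36.4 and 57.6 CPM in old HA and at 20.6 and 5.50 CPM in young HA (1.98, SE 1.20, adjusted p = 0.550). The groups did not overlap for either gene, and the difference between the 2 genes was not tested. These paralogs are alike in sequence, as are their processed copies elsewhere in the genome, so the counts of both are uncertain where reads map to several copies. The third ADP/ATP exchanger, Slc25a31, was at 24.6 and 13.9 CPM in old and 38.2 and 25.3 CPM in young HA (-0.71).

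Of the other Slc25a members with most input reads, Slc25a44, a carrier of branched-chain amino acids, was at 66.0 and 69.7 CPM in old input against 29.6 and 34.7 CPM in young input. In HA the order was turned round, with 3.33 and 12.6 CPM in old and 29.2 and 45.1 CPM in young pools. Its log2 HA/input was -3.95 and -2.38 in old and -0.02 and 0.37 in young pools (difference -3.34, SE 1.26, adjusted p = 0.739 in limma). It was the one Slc25a member with an unadjusted p under 0.05 for the old minus young difference in HA/input. Slc25a32, a folate and FAD carrier, was at 17.9 and 13.2 CPM in old and 32.9 and 31.7 CPM in young HA (-1.02). Slc25a12, an aspartate-glutamate exchanger, was at 6.70 and 5.58 CPM in old and 30.6 and 12.6 CPM in young HA (-1.54).

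Slc25a48 was the most abundant carrier of its family per kilobase. Its HA level was 119.6 and 184 CPM in old and 95.6 and 89.1 CPM in young pools (0.68, SE 0.57). Slc25a35 split the old pools, with 293 and 58.7 CPM in input and 388 and 19.8 CPM in HA of Old 1 and Old 2, so that its difference of 0.31 in HA had an SE of 1.34. Slc25a15, the ornithine carrier of the urea cycle, did the same in HA (108 and 19.5 CPM in old, 91.8 and 86.4 CPM in young pools).

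Other inner-membrane carriers with an unadjusted p under 0.05 in HA were the citrate carrier Slc25a1 (0.190 and 0.222 CPM in old, 11.6 and 8.41 CPM in young HA), the oxoglutarate carrier Slc25a11, Slc25a14 and Slc25a40. In the opposite direction, the carnitine-acylcarnitine carrier Slc25a20 was at 5.84 and 124 CPM in old and 2.02 and 3.84 CPM in young HA. Both old pools lay above both young ones, with Old 2 far above the other 3, and DESeq2 called it higher in old (adjusted p = 0.00993) where limma gave 0.568.

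Of the 18 members of amino acid carrier families, 5 were lower in old HA at an unadjusted p under 0.05 (10.5% of all genes were) and 0 were higher (4.28% of all genes). The 5 include Slc6a4, which carries serotonin. All 5 had entered the table through the young libraries alone. Slc7a11, the cystine-glutamate exchanger that feeds glutathione synthesis, was at 734 CPM in Old 1, 1549 CPM in Old 2, 678 CPM in Young 1 and 633 CPM in Young 2 in HA, with 347, 484, 483 and 485 CPM in input. Both old pools were above both young ones in HA, and Old 2 stood far above the other 3 (0.70, SE 0.46, adjusted p = 0.595; -0.05 after quantile normalization). Slc7a2, a carrier of arginine and lysine, was at 400 and 415 CPM in old and 239 and 350 CPM in young HA (0.49, SE 0.43; -0.15 when rescaled to the same sum or by quantiles). Slc6a6, the taurine transporter, was at 447 and 113.5 CPM in old and 406 and 358 CPM in young HA (-0.75, SE 0.69), where Old 2 alone was low.

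Slc6a4, the serotonin transporter, was near the floor in old HA. It had 4 and 3 reads there (0.0950 and 0.111 CPM) against 1632 and 722 reads (21.1 and 12.7 CPM) in young HA. Its input was 98.6 and 12.4 CPM in old and 28.1 and 13.9 CPM in young pools, so the transcript was present in both old lysates. Its log2 difference was -3.98 in HA (SE 1.15, adjusted p = 0.297) and -4.79 in HA/input (SE 1.69, adjusted p = 0.739). Slc36a1, a proton-coupled amino acid carrier, showed the same layout with 5 and 4 reads in old and 913 and 477 reads in young HA (-3.28).

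Slc6a20a and Slc6a20b encode proline carriers that are near neighbours on chromosome 9, and reads may be shared between them. Slc6a20b was at 0.285 and 0.333 CPM in old and 14.5 and 2.73 CPM in young HA (-2.54, SE 1.04), and it overlaps Sacm1l. Slc6a20a was at 0.285 and 27.8 CPM in old and 19.3 and 5.08 CPM in young HA, so that its groups overlapped (-0.87, SE 1.94).

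The abundant zinc importers lay higher in both old HA pools, for Slc39a6 not under every scaling. Slc39a10 was at 625 and 972 CPM in old and 375 and 449 CPM in young HA, with 499, 484, 365 and 523 CPM in input. The old pools were above both young pools (0.92, SE 0.42, adjusted p = 0.367; 0.26 to 0.64 under the other scalings). Slc39a6 was at 328 and 358 CPM in old and 201 and 294 CPM in young HA (0.49, SE 0.45), a direction that turned to -0.14 when libraries were rescaled to the same sum or by quantiles. The zinc exporter Slc30a1 had the opposite layout, with 2.38 and 2.44 CPM in old and 21.7 and 31.5 CPM in young HA (-3.00, SE 1.44, adjusted p = 0.407), while its input (19.9, 54.3, 55.6 and 24.2 CPM) did not separate the ages. The copper transporter Slc31a2 was higher in both old pools in input (169 and 208 against 73.3 and 139 CPM) and in HA (308 and 319 against 152 and 197 CPM), and its HA/input difference was -0.03 (SE 0.63).

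Among the 26 ion and acid-base carriers, the same threshold gave 6 lower (10.5% of all genes) and 0 higher (4.28%) in old HA, and all 6 had passed through the young libraries alone. Slc20a2, a sodium-phosphate cotransporter, had 13 and 5 reads in old HA (0.309 and 0.185 CPM) against 1652 and 2499 reads in young HA (21.4 and 44.1 CPM). Its input was 31.0, 38.9, 36.7 and 22.0 CPM, with overlapping ages. It had the lowest difference of any member in HA on the log2(CPM + 1) scale (-4.67, SE 1.39, adjusted p = 0.297 in limma), whereas by the likelihood ratio test's fitted values on recovered reads Slc9a9, Slc9a8, Slc25a3, Slc5a10 and Slc6a4 lay lower. Slc20a2 was under 1 CPM in both old HA libraries and passed the filter through the young ones alone, so a lower old level was fixed by the filter. With that limit, the adjusted p was 0.0462 in edgeR's likelihood ratio test and 3.3e-05 in DESeq2. Its log2 HA/input was -4.61 and -5.07 in old and -0.76 and 0.97 in young pools (-4.95, SE 1.54, adjusted p = 0.739). Slc20a2 overlaps Smim19, and Slc30a1 overlaps 1700034H15Rik.

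Slc26a5, an anion transporter family member known as prestin in the inner ear, was at 2.30 and 0.259 CPM in old and 12.0 and 26.1 CPM in young HA, with higher input in both old pools (39.7 and 50.0 against 16.2 and 30.5 CPM). The difference in HA/input was -4.17 (SE 1.53, adjusted p = 0.739). Slc12a2, the sodium-potassium-chloride cotransporter of cell volume control, was at 18.4 and 18 CPM in old and 52.3 and 36.2 CPM in young HA (-1.21, SE 0.99). Slc12a9, a related family member, was the other way round, at 210.5 and 114.6 CPM in old and 91.5 and 28.6 CPM in young HA (1.58, SE 0.79), while its input was lower in both old pools (19.8 and 37.6 against 57.4 and 42.6 CPM).

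At most 3 reads in both old HA libraries were found for 9 members (6.98%, against 4.97% of all genes) and in both young HA libraries for 0 (0.0112% of all genes). They were the pyruvate and lactate carrier Slc16a7, Slc25a3, Slc37a3, the choline transporter-like Slc44a3, the chloride-bicarbonate exchanger Slc4a2, the sugar carrier Slc5a10, Slc6a21 and the sodium-proton exchangers Slc9a8 and Slc9a9. Slc9a9 had 0 reads in both old HA libraries against 69 and 279 in young HA, at least 31.9-fold lower in old at the floor. Slc16a7 had 3 and 3 reads against 829 and 173, and Slc9a8 had 1 and 2 reads against 471 and 926. Input of Slc16a7 was also low in the old pools (62 and 2 reads against 182 and 487), and Slc9a8 had no input read in them. All 9 members passed the HA filter through the young libraries alone, and Slc9a8 passed the input filter in the same way. Lower old values were fixed by the filter there, so a shared direction of HA and input is not separate evidence. Slc4a2 overlaps Fastk.

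**Figure D3:**
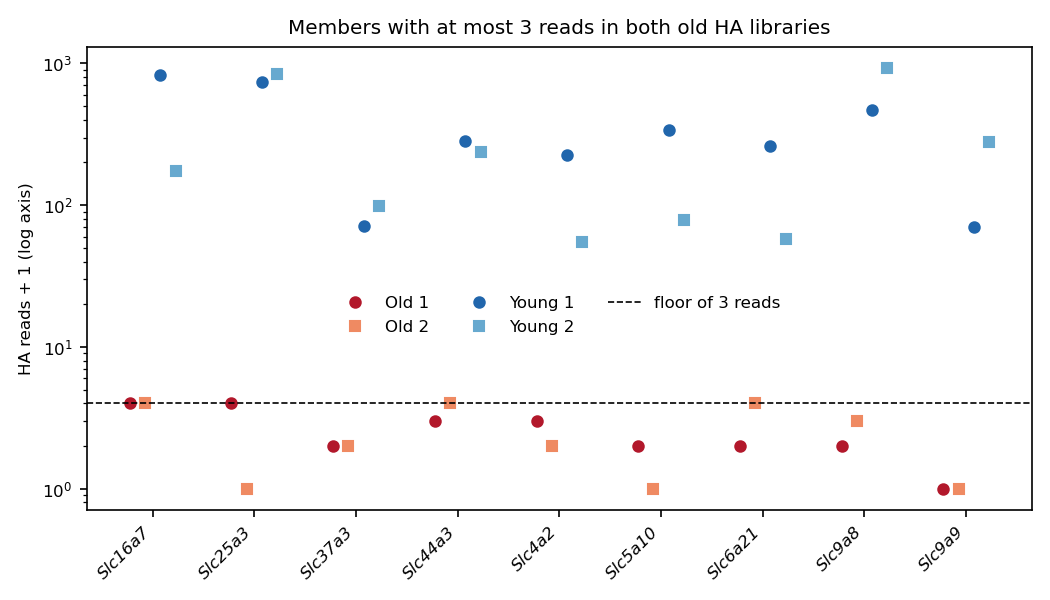
Reads + 1 (log axis) in the 4 HA libraries for the 9 members with at most 3 reads in both old HA libraries. Points are libraries, red and orange for Old 1 and Old 2, dark and light blue for Young 1 and Young 2, and the dashed line marks 3 reads; all young libraries lie at 54 reads or more.

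Most sugar and monocarboxylate carriers were low in HA and scattered between pools. Slc2a1, the basal glucose transporter, had 1479 and 1 reads in old HA and 696 and 9 reads in young HA, so that the pools of an age differed more than the ages. Slc16a1, a monocarboxylate carrier, was at 0.570 and 8.54 CPM in old and 15.1 and 7.84 CPM in young HA (-1.63, SE 1.58). The urate carrier Slc2a9 was at 1.07 and 2.11 CPM in old and 3.80 and 40.5 CPM in young HA although its input was 25.3 to 46.1 CPM in all pools. Of the 13 carriers of this group, 2 were lower in old HA at an unadjusted p under 0.05 (Slc16a7 and Slc5a10, 15.4%, against 10.5% of all genes), and both had passed through the young libraries alone.

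The single member higher in old HA at an unadjusted p under 0.05 was Slc44a5, a choline transporter-like gene at chr3:153973436-154271722 (plus strand, GRCm38). It was at 31.6 and 211 CPM in old HA (1330 and 5718 reads) and at 3.83 and 0.335 CPM in young HA (296 and 19 reads). Its input was 13.5 and 4.09 CPM in old and 5.59 and 10.3 CPM in young pools, with no separation. The log2 difference was 5.03 in HA (SE 1.60, adjusted p = 0.297 in limma; 0.0462 in the likelihood ratio test and 0.000208 in DESeq2) and 5.04 in HA/input (SE 1.94, adjusted p = 0.739). Both old pools were above both young pools, but the old pools themselves differed by several-fold.

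Among the carriers of vitamins, Slc23a2, which takes up ascorbate, was the most abundant. It was at 424 and 276 CPM in old and 256 and 68.8 CPM in young HA (1.36, SE 0.71, adjusted p = 0.457). Of the nucleotide-sugar carriers, the CMP-sialic acid carrier Slc35a1 was at 2.99 and 8.02 CPM in old and 36.6 and 106 CPM in young HA (-3.40, SE 1.30, adjusted p = 0.313), while its input (12.7, 67.8, 28.9 and 25.1 CPM) did not separate the ages.

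The ratio of HA to input (translation efficiency, TE) was compared between ages per pool on the log2 scale. No member passed an adjusted p of 0.05 in limma (smallest 0.739) and none of the 8537 genes did (0.0%), nor did any member in the quasi-likelihood interaction test. At an unadjusted p under 0.05, 2 members were higher in old (Slc44a5 and Slc12a9; 1.55%, against 2.98% of all genes) and 6 were lower (Slc20a2, Slc6a4, Slc26a5, Slc25a44, Slc35a1 and Slc4a10; 4.65%, against 3.51%). These 8 became 35 without Old 1 (27.1%, against 25.1% of all genes), 27 without Old 2 (20.9%, against 19.1%), 2 without Young 1 (1.55%, against 1.98%) and 0 without Young 2 (0.539% of all genes). Both old pools lay above both young pools for 18 members (14.0%, against 17.2%) and below them for 30 (23.3%, against 20.4%). The median difference was -0.42 for members, -0.57 for Slc25a and -0.10 for all genes. These values use the same libraries as the HA and input comparisons and are not separate evidence. Of the 6 lower members, Slc20a2, Slc6a4 and Slc4a10 had passed the HA filter through the young libraries alone. For them a low old HA was fixed by the filter.

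Over both ages, members lay below their input in the ribosome-bound fraction about as often as other genes. The tables were scaled separately, so a log2 HA/input of 0 has no absolute meaning, and the median of all genes was -0.56. The median was -0.74 for all members, -0.80 for the 104 other transporters and -0.33 for Slc25a. No member passed an adjusted p of 0.05 in limma (smallest 0.0579, Slc37a3), where 130 genes (1.52%) did. Without pairing HA and input by pool, 1 member passed (Slc37a3, adjusted p = 0.0336; 2.01% of all genes did). At an unadjusted p under 0.05, 5 members were above their input (3.88%, against 5.77%) and 24 below (18.6%, against 18.6%), and these 29 became 56 without Old 1 (43.4%, against 41.9%), 9 without Young 1 (6.98%, against 8.67%) and 4 without Young 2 (3.1%, against 6.5%). Without Old 1, 32 members passed the adjusted threshold (24.8%, against 27.8% of all genes), and without Old 2, 14 did (10.9%, against 14.4%). HA was above input in all 4 pools for 7 members (5.43%, against 8.06%) and below in all 4 for 30 (23.3%, against 24.1%).

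Members above their input included both chains of the cystine-glutamate exchanger. Slc7a11 had a log2 HA/input of 1.08, 1.68, 0.49 and 0.38 in Old 1, Old 2, Young 1 and Young 2 (mean 0.91, SE 0.22, adjusted p = 0.0770). Slc3a2, the heavy chain that brings Slc7a11 and several other carriers to the membrane, had 1.38, 0.69, 1.12 and 0.47 (mean 0.91, SE 0.33, adjusted p = 0.15). Both genes were above 0 in every pool, and the old minus young difference of Slc3a2 in TE was 0.24 (SE 0.66).

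Slc25a17, a family member of the peroxisome, had the highest mean of the members with at least 10 CPM of input (1.47, SE 0.53, adjusted p = 0.15). Its HA was 95.3, 85.8, 69.6 and 80.3 CPM and its input 29.3, 22.2, 56.6 and 19.3 CPM, above input in all 4 pools. Slc12a9 (mean 1.26) and the glycine carrier Slc25a38 (mean 1.12) were above input in both old pools and in Young 1, and below it in Young 2.

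At the other end, Slc37a3 had 1, 1, 70 and 97 HA reads against 2574, 836, 977 and 334 input reads in Old 1, Old 2, Young 1 and Young 2 (mean log2 HA/input -3.63, SE 0.76). The GDP-fucose carrier Slc35c1 (mean -2.94), the neutral amino acid exchanger Slc7a8 (-2.87), Slc6a21 (-2.70) and Slc2a9 (-2.69) were below their input in all 4 pools as well. Slc7a8, for example, was at 42.8, 70.5, 37.3 and 55.3 CPM in input and at 9.0, 0.628, 20.0 and 5.98 CPM in HA. Slc7a8 and Slc7a11 both pair with heavy chains of the Slc3 family and lay on opposite sides of the median of all genes.

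**Figure D4:**
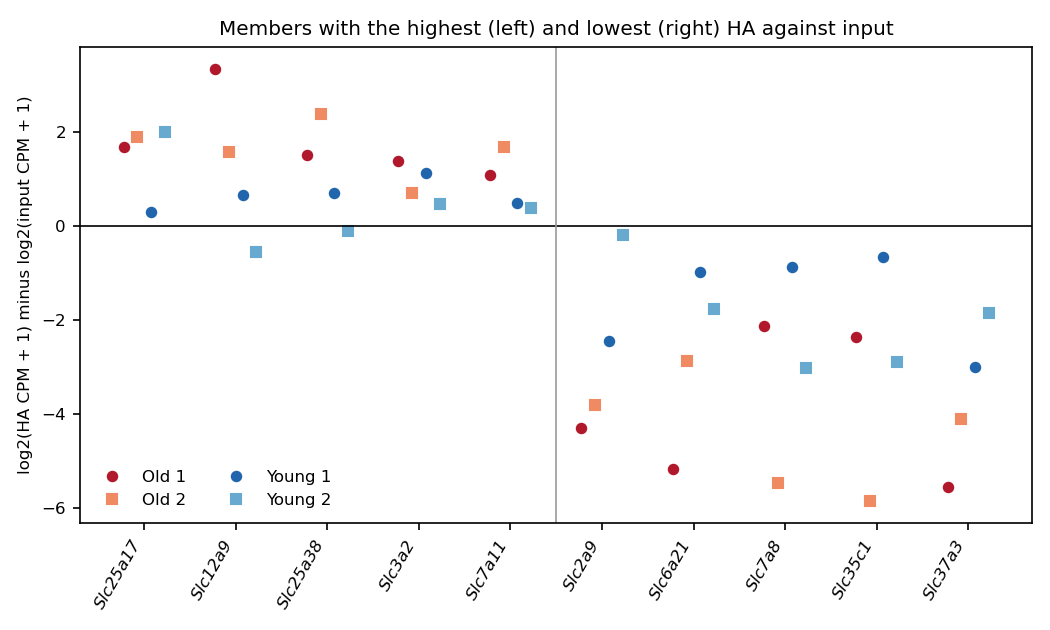
log2(HA CPM + 1) minus log2(input CPM + 1) in each pool for the 5 members with the highest (left of the line) and the 5 with the lowest (right) mean among members with at least 10 CPM of input. Red and orange are Old 1 and Old 2, dark and light blue Young 1 and Young 2; Slc25a17, Slc3a2 and Slc7a11 lie above 0 in all pools, and the 5 on the right lie below 0 in all pools.

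A list of 30 transporters known from oocyte and embryo physiology was also followed. Both tables listed 16 of them and neither listed the other 14, among them the glycine carrier Slc6a9 and the glucose carrier Slc2a3, which were not analysed here. Of the 16, none passed an adjusted p of 0.05 in limma in any comparison. At an unadjusted p under 0.05, 5 were lower in old HA (Slc16a7, Slc25a3, Slc25a4, Slc4a2 and Slc6a20b, against 10.5% of all genes) and 0 higher (4.28% of all genes), and 4 of the 5 had passed through the young libraries alone. The median difference was -1.04, against -0.14 over all genes. Among 17 genes of related function whose symbols fall outside the pattern, the median difference was 0.55. At an unadjusted p under 0.05 in limma, Sfxn1, a mitochondrial serine carrier, was higher in old HA (5.88%, against 4.28% of all genes). Tmem165 and Stk39 were lower (11.8%, against 10.5%). Sfxn1 passed the filter through the old HA libraries alone and the other genes through the young ones alone, so each direction was fixed.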

How the data were processed

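Total (input) and HA-bound mRNA of MII oocytes were measured by RNA-Seq in 4 pools, 2 old and 2 young. Per the paper's methods, the authors trimmed reads (Trimmomatic 0.36), aligned them with HISAT2 to GRCm38, counted them per gene with HTSeq without strand and removed low genes. The methods name a minimum of 10 CPM in at least 2 samples, whereas the genes of the deposited tables reach down to 1 CPM (before TMM) in at least 2 libraries, so the values depart from the stated filter. The deposited signal values are CPM after TMM scaling, with HA and input scaled apart. All values were whole multiples of 1 read (tolerance 0.01), so reads were recovered.

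Old and young were compared with limma 3.58.1 (lmFit, eBayes with trend) on log2(CPM + 1), with two-sided p-values adjusted by Benjamini-Hochberg within each table, over every gene in it. TE was taken within a pool, whose HA and input libraries share a lysate, whereas replicate numbers did not pair old with young pools (correlation of deviations 0.0269 in input, 0.0786 in HA and 0.0109 in TE). An exact permutation test of 2 pools against 2 cannot go below 0.333. Alternatives used edgeR 4.0.16 and DESeq2 1.42.0 on recovered reads, other pseudocounts (0.1 and 5 CPM), filters, scalings and leaving out each pool. Scripts were tested on simulated data. R 4.3.3 and Python 3.11.15 were used.

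The members and lists were chosen with earlier results of these data known. Named genes were 16 of a list of oocyte transporters, the 8 Slc25a and 8 other members with most input reads, the 3 smallest p-values in each direction of each age comparison, and the 5 highest and 5 lowest in HA/input, and other genes were named after their values were seen. Gene positions, exon lengths and 3′-UTRs came from GENCODE M21, which matched 8516 of 8537 genes and 129 of 129 members. Protein sequences were not used here. 1 named gene is not reported here.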

Additional observations from a re-analysis of the deposited data

How the results depend on the processing

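Under every alternative run, 0 members were past an adjusted p of 0.05 in input and in TE. In HA the likelihood ratio test gave 7 and DESeq2 11, against 0, and leaving out 1 pool gave 0 to 11 (6 without Old 1, 11 without Young 2). For HA against input, the fit with no replicate block gave 1, centring on the median of all genes 1, quantile normalization 2, and leaving out 1 pool 0 to 32.

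Counts at an unadjusted p under 0.05 moved more. In input the 7 members became 14 in DESeq2, 4 for genes averaging 10 CPM or more and 2 to 14 with 1 pool left out. In HA the 25 became 6 for genes reaching 10 CPM in 2 or more libraries, 3 for genes averaging 10 CPM or more (both filters test fewer genes) and 5 after quantile normalization. In TE the 8 became 23 in the quasi-likelihood interaction, 5 for genes averaging 10 CPM or more, 14 without the eBayes trend and 0 to 35 with 1 pool left out. For HA against input the 29 became 15 and 14 under the filters, 18 in the young pools alone and 4 to 56 with 1 pool left out. Where a pool was left out, the lone pool of its age was assumed to vary like the others. Apart from the filters, the cause of these shifts was not tested. For the settings of this paragraph other than a left-out pool, shares of all genes are not given here. Whether members moved unlike all genes there cannot be told.

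Some medians changed sign. In input, that of the members became 0.0068 in DESeq2, 0.10 for genes reaching 10 CPM in 2 or more libraries and 0.11 for genes averaging 10 CPM or more, and that of Slc25a became 0.125 under the latter filter and ran from -0.26 to 0.13 with 1 pool left out. In HA, the median of the members became 0.0094 and 0.23 under these filters and that of Slc25a 0.27 under the second. For HA against input, that of Slc25a became 0.035 under the second filter and 0.13 after centring.

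With the replicate number as a block, 4 members were higher and 3 lower in input at an unadjusted p under 0.05 in limma (3 and 4 without it). In HA they were 3 and 23 (1 and 24 without it), and in TE 2 and 6 with and without it. The share of all genes under the block is not given here. The count past an adjusted p of 0.05 stayed at 0. Among named genes, an alternative brought an adjusted p under 0.05 in 19 cases in HA and 24 in HA against input, counted over genes and alternatives. With 2 pools an age and old HA pools more than 4-fold apart for 48 members, differences of single low-level transporters cannot be resolved.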
